A study of Mus musculus with 8 samples.

Results

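Tumours of cromolyn-treated TRAMP mice were set against normal prostate, with groups taken from the sample titles: 3 tumour samples and 2 wild-type samples, which make up 5 of the 8 samples of the series. The tumours came from TRAMP mice of the C57Bl/6 strain that were 24 weeks old and had received cromolyn, which keeps mast cells from releasing their granules, since an age of 8 weeks. The wild-type prostates, labelled non-tumor, came from C57Bl/6 mice of 30 weeks with no treatment named. Tumours of untreated TRAMP mice of 30 weeks (2 samples) are used below as a reference, and the tumour of a TRAMP KitW-sh mouse of 24 weeks (1 sample), a genotype that lacks mast cells, entered the fit with them. All 8 samples were C57Bl/6. TRAMP mice carry the T antigens of a simian virus under the promoter of the prostate gene probasin, so the transgene acts in prostate epithelium. The transgene, the drug and an age 6 weeks lower all separate the cromolyn tumours from the wild-type prostates, and their effects cannot be told apart in this comparison. The only 24-week tumour with no cromolyn named is the single TRAMP KitW-sh sample, which differs from the cromolyn tumours in the Kit gene as well. Nothing in the labels says that replicates came from separate animals, so the p-values rest on a spread among samples that may be technical.

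The normal gland is built of luminal cells, which secrete the proteins of prostatic fluid under the control of androgens, of basal cells, which carry the p63 transcription factor, and of a surrounding sleeve of smooth muscle. Neuroendocrine prostate tumours carry proteins of secretory granules and synapses, such as chromogranin and synaptophysin, in place of the luminal ones. T antigens bind the Rb family of proteins, which in normal cells hold back the E2F factors that switch on genes of DNA replication.

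RNA was measured on Illumina mouse beadchips, where each transcript lights up a probe. Levels are given as log2 intensity after background correction and quantile normalization. A level above 7.01 counts as above background, and the highest level on the scale was 16.07. Between 14531 and 14552 of 25697 probes lay above the limit on each array. The test covered 13067 features (11982 named genes and 1085 unnamed probes) with limma over all 8 arrays, and features at an adjusted p under 0.05 are called changed. Probes above the limit on no array were left out. Shares and medians of the gene lists below thus omit members that were dim on every array. Across features, which are not independent replicates, the wild-type arrays correlated at 0.967, the cromolyn arrays at 0.931 to 0.966, and arrays of different groups among these at 0.713 to 0.761.

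Between the cromolyn tumours and wild-type prostate, 5979 of 13067 features changed (45.8%), of which 2999 were higher in the tumours (23% of all features) and 2980 lower (22.8%). The unadjusted p of 6933 features was under 0.05. The median log2 difference over all features was 0.03. Changes of at least 4-fold numbered 786 upward and 1046 downward, and changes of at least 16-fold 133 upward and 259 downward. Of the genes that rose, 478 were above background on no wild-type array, and of those that fell, 539 were above background on no cromolyn array. Because so many features changed, each count of list members below is read against the shares of 23% and 22.8%. Where a whole group stayed below background, the fold is written as "at least", with that group set at the limit or at its own level if higher. Without wild-type replicate 2, 1975 features were higher in place of 2999.

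**Figure D1:**
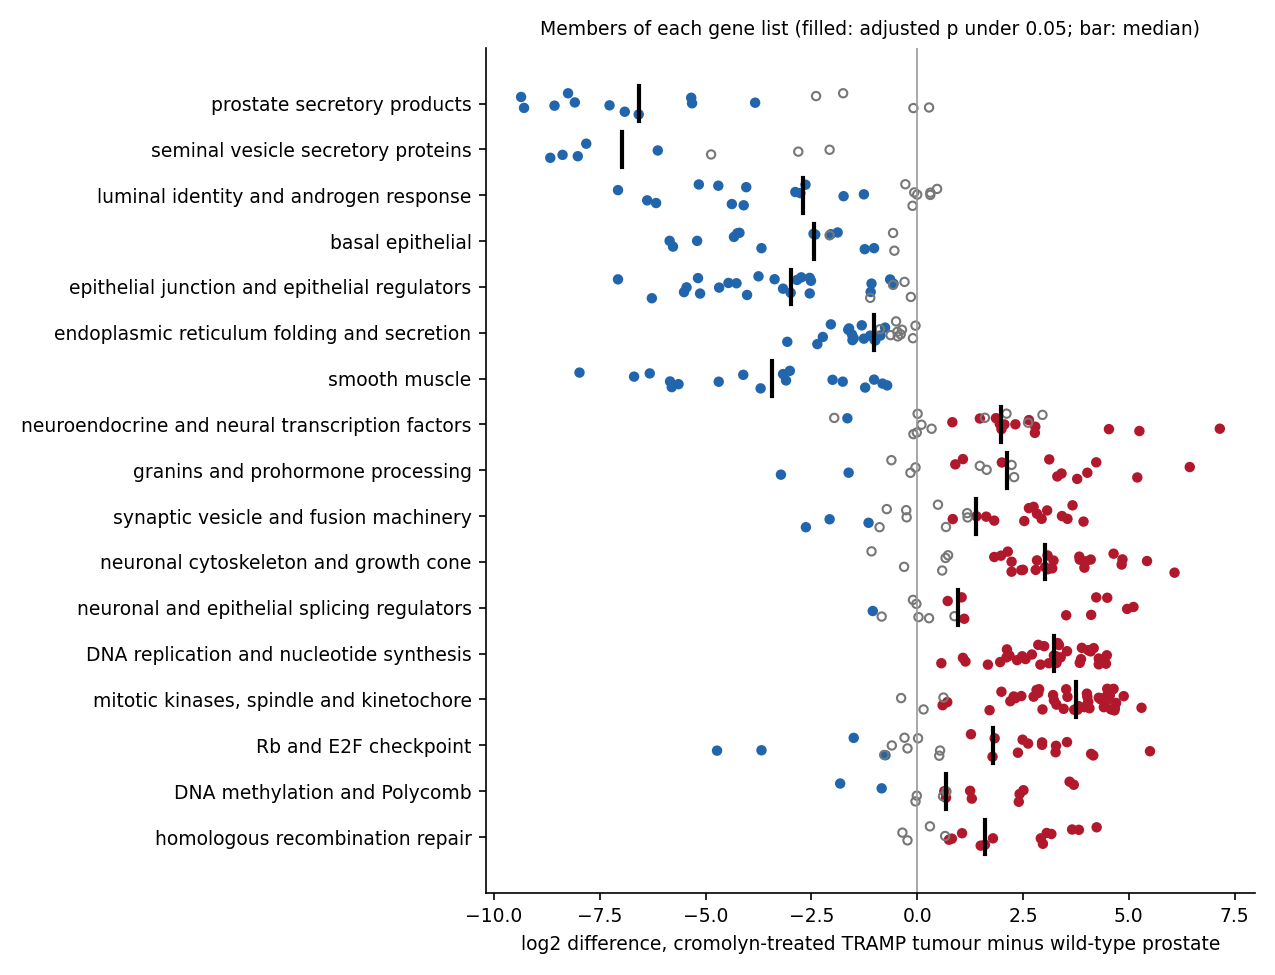
Fitted log2 difference (cromolyn tumour minus wild-type prostate, horizontal axis) of each tested member of 17 gene lists, with filled points at an adjusted p under 0.05 and a bar at the list median. The medians of the 7 upper lists lie between -6.98 and -1.01, and those of the 10 lower lists between 0.69 and 3.75. Not drawn are the lists of polyamine (median 0.15), monoamine (-0.68), ion channel (0.33), neurotransmitter receptor (0.78) and Notch genes (0.12), among others.

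Genes for the products that prostate lobes secrete had some of the largest falls. Of 17 listed genes 15 were tested, 11 fell (73.3%) and none rose, and their median log2 difference was -6.58. Tgm4, the transglutaminase that forms the copulatory plug, stood at 15.98 and 16.01 in wild-type replicates 1 and 2, and at 6.98, 6.65 and 6.49 in cromolyn replicates 1, 2 and 3. No tumour was above background and the groups lay far apart, with Tgm4 at least 508-fold lower in the tumours (adjusted p = 4.55e-05). Pbsn, the probasin gene whose promoter drives the transgene in these mice, was at 12.50 and 11.23 in wild type and at 6.64, 6.63 and 6.37 in the tumours. It was thus below background in every cromolyn tumour, at least 29.0-fold lower (adjusted p = 0.00344). Msmb, which encodes a small protein of prostatic fluid, was at 15.93 and 15.47 in wild type and at 6.83, 6.59 and 8.92 in the tumours, of which only replicate 3 was above background. The difference was -8.25 ± 0.67 (SE, adjusted p = 0.000181). The beta-defensin Defb50 showed the same order among tumours, with 6.35 and 6.34 in replicates 1 and 2 and 10.73 in replicate 3, where the wild-type samples were at 16.03 and 15.77. Azgp1, a secreted glycoprotein, was at 6.31 in replicates 1 and 2 and at 9.85 in replicate 3, and fell by 7.27 ± 1.10. The beta-defensin Defb42 was at least 162-fold lower and was below background in every tumour.

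Of the other secretory genes, Pate4, Wfdc3, Serpina1f, Apof and Spink1 fell as well. Pate4 was at 15.81 and 15.97 in wild type and at 6.20, 7.03 and 6.35 in the tumours (-9.36 ± 2.10). The SE rests on the spread of all groups, and the untreated tumours lay far apart (7.52 and 15.83). Its call was lost without wild-type replicate 1 or 2, where the difference was -9.44 or -9.28. That of Apof was lost without wild-type replicate 1 (0.0676), and that of Spink1 without cromolyn replicate 1 or 2 or either wild-type replicate (0.0856 to 0.196). The other 8 stayed called with each of the 5 arrays left out in turn. Sbp was high in wild-type replicate 1 only (10.12 against 6.66), and Ceacam10 and Cst11 were not called. Man1a2, an enzyme that trims sugar chains inside cells and is no secreted product, was not called either. The counts and the median of this list include it. In bulk tissue, fewer cells of a type and less RNA per cell cannot be told apart, here and in all results below.

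Genes of the seminal vesicle, a neighbouring gland that secretes the proteins of the semen clot, were also high in the samples labelled prostate. Svs2 was at 15.27 and 15.49 in wild type and at 6.69, 6.64 and 6.80 in the tumours, at least 331-fold lower (adjusted p = 0.00834). The untreated tumours were split, with 6.70 in replicate 1 and 13.88 in replicate 2, and Svs1, Svs3b, Svs4 and Svs5 were split in the same way. Pate4, counted above with the prostate products, was split likewise (7.52 and 15.83). Which gland its signal came from was not tested. Of 8 tested genes 5 fell, and the median was -6.98 (-6.53 with bounded members at their bound). The count fell to 1 without wild-type replicate 1, 0 without wild-type replicate 2, and 3 without cromolyn replicate 1 or 3, and it was 8 when only the 5 arrays were fitted. How much of this gland each sample held was not tested.

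The luminal programme fell with the secretory products, while the pioneer factor Foxa1 kept its level. Of 20 tested genes of luminal identity and androgen response, 13 fell (65%), 10 of them with any 1 of the 5 arrays left out, and none rose. The median was -2.70 (-2.31 with bounded members at their bound). Krt8, the keratin of luminal cells, was at 14.03 and 14.60 in wild type and at 7.15, 6.92 and 9.73 in the tumours (-6.38 ± 0.81, adjusted p = 0.00107). Its partner keratin Krt18 was at 13.35 and 13.50 against 6.69, 6.54 and 8.54 (-6.17 ± 0.58, adjusted p = 0.000305). Replicate 3 was the highest tumour for both keratins, yet far below both wild-type samples.

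Tmprss2, an androgen-responsive membrane protease, had the widest fall of the list, from 14.53 and 14.36 to 6.45, 6.60 and 9.07 (-7.07 ± 0.76). Spdef, an Ets factor of secretory luminal cells, went from 11.07 and 10.60 to 6.67, 6.60 and 7.11 (-4.04 ± 0.23, adjusted p = 6.05e-05). Acpp, the prostatic acid phosphatase, was at 9.45 and 9.01 in wild type and below background in all tumours (6.40, 6.64 and 6.73), at least 4.66-fold lower (adjusted p = 0.000152). Dpp4, a membrane peptidase, fell by 4.70 ± 0.43 and Slc45a3, the prostate marker prostein, by 4.38 ± 0.64. Krt19 (-5.16 ± 1.09) lost its call without wild-type replicate 2 (adjusted p = 0.06). The luminal factor Gata3 (-4.10 ± 1.02) lost it without wild-type replicate 1 (0.0769) or 2 (0.0801), and its tumour levels were uneven, with 11.62 in replicate 1 and 8.07 and 8.20 in replicates 2 and 3. Foxa1, which opens chromatin for other factors, was at 13.65 and 13.10 in wild type and at 13.94, 13.10 and 14.00 in the tumours. The ranges overlapped and the difference was 0.31 ± 0.32 (adjusted p = 0.474). Cd24a (0.00 ± 0.29) and Ndrg1 (-0.07 ± 0.36) were not called either. Set against the tissue label, the tumours thus lacked probasin and acid phosphatase signal above background but held Foxa1. No probe used here measured Epcam.

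**Figure D2:**
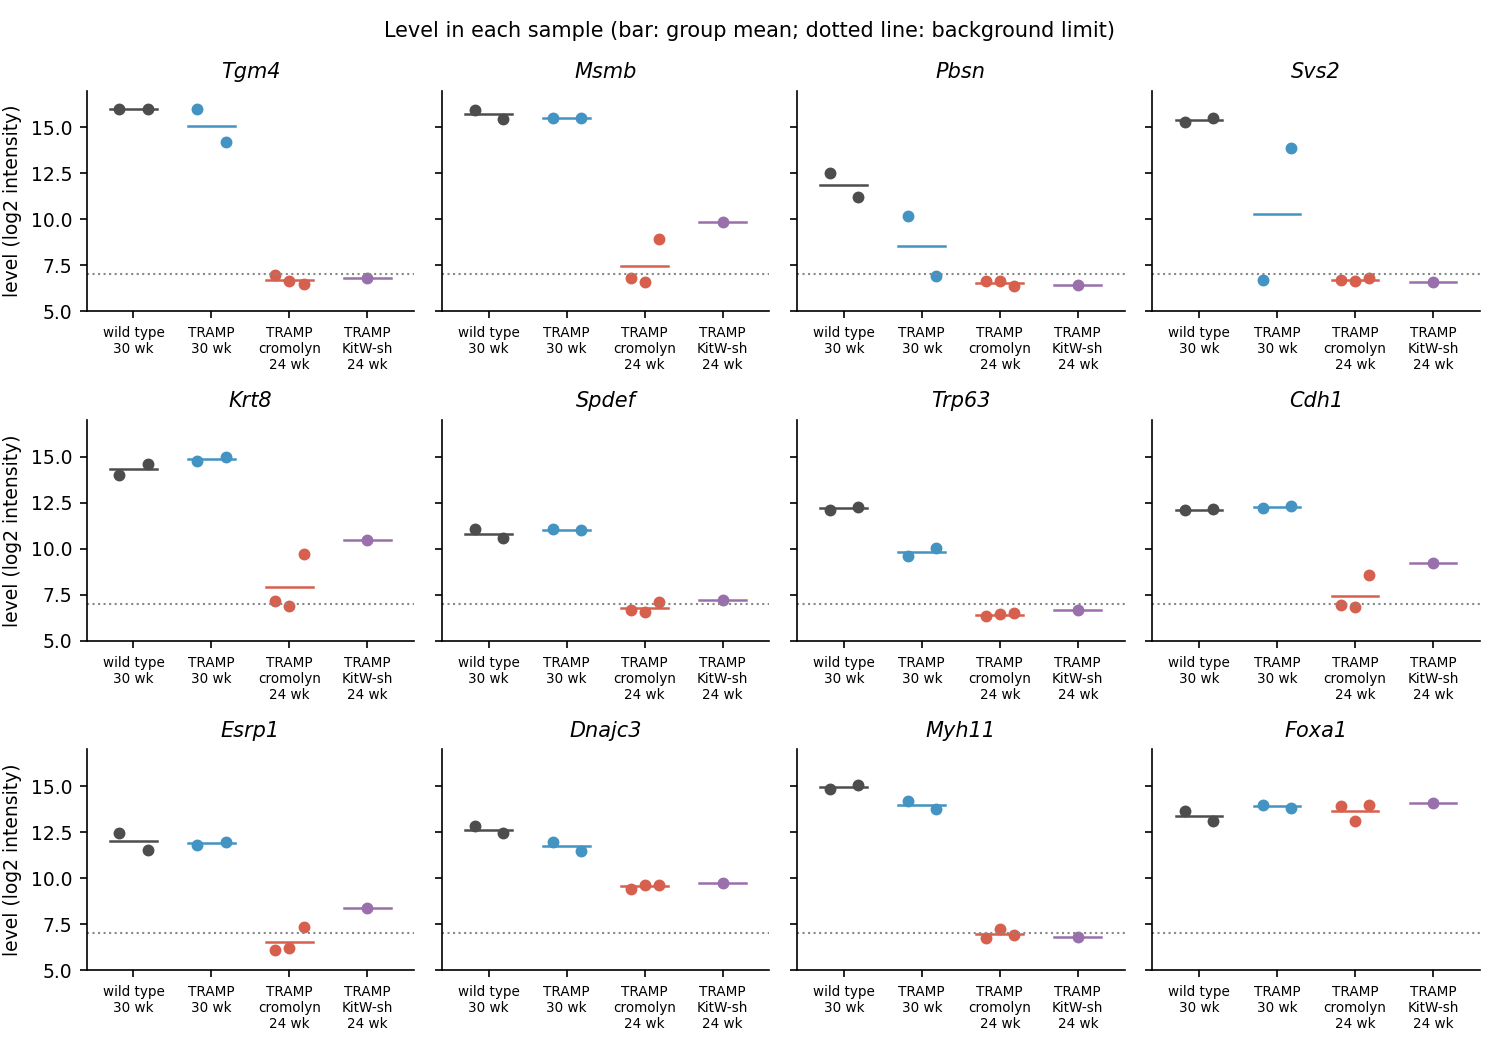
Level (log2 intensity) of 12 genes in each of the 8 samples, by group, with the group mean as a bar and the background limit (7.01) as a dotted line. Tgm4 lies at 15.98 and 16.01 in wild type and under the limit in all cromolyn tumours, while Foxa1 stays between 13.10 and 14.00 in both groups.

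Basal cell genes fell too. Of 16 tested 13 fell (81.2%) and none rose, with a median of -2.43, and without wild-type replicate 2 the number was 8. Trp63, which encodes the basal transcription factor p63, was at 12.13 and 12.28 in wild type and at 6.35, 6.45 and 6.51 in the tumours. Every tumour was below background and the samples of each group lay close together, at least 36.7-fold apart between groups (adjusted p = 2.16e-05). The basal keratin Krt5 went from 9.92 and 11.63 to 6.53, 6.65 and 6.39 (at least 13.6-fold lower, adjusted p = 0.000529). Krt15, another basal keratin, fell by 5.85 ± 0.40, the hemidesmosome collagen Col17a1 was at least 14.9-fold lower, and the growth factor receptor gene Egfr fell by 3.68 ± 0.27. Krt14 was at 11.02 in cromolyn replicate 2 but at 6.57 and 6.92 in replicates 1 and 3, and its fall (-5.20 ± 1.30) lost its call without cromolyn replicate 3 (adjusted p = 0.0508) or wild-type replicate 1 (0.0525) or 2 (0.104). Krt17 (-2.07 ± 0.79, adjusted p = 0.073), Jag2 and Krt6a were not called.

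Genes that join epithelial cells to each other, and the factors that keep cells epithelial, fell nearly as a whole. Of 27 tested 23 fell (85.2%) and none rose, and 19 of them stayed called with any 1 of the 5 arrays left out. The median was -2.99 (-2.84 with bounded members at their bound). Cdh1, the adherens junction protein E-cadherin, was at 12.09 and 12.17 in wild type and at 6.97, 6.83 and 8.57 in the tumours (-4.68 ± 0.51, adjusted p = 0.000555). Cldn4, a claudin of tight junctions, was at 13.94 and 13.88 against 6.68, 6.42 and 9.84 (-6.27 ± 0.97, adjusted p = 0.00244). Esrp1, which sets the epithelial pattern of splicing, was at 12.46 and 11.56 against 6.12, 6.22 and 7.36 (-5.45 ± 0.44, adjusted p = 0.00018). Replicate 3 was the highest tumour for these 3 genes, and no tumour reached the wild-type range. Cldn3 fell by 5.51 ± 0.73, as did Rab25, a small GTPase of epithelial membrane recycling (-5.18 ± 0.34), and Prss8, a membrane-anchored serine protease (-5.13 ± 0.44). The epithelial transcription factor Grhl2 fell by 3.17 ± 0.55, and Ocln, a strand protein of tight junctions, was at least 4.66-fold lower. Dsg2, a desmosomal cadherin, was not called (-1.11 ± 0.96), with cromolyn replicate 2 above both wild-type samples and the other tumours below background. Ovol1, Cldn8 and Crb3 were not called and lay near the limit.

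Genes for folding and export of proteins in the endoplasmic reticulum fell by smaller amounts. Of 25 tested 16 fell (64%), 11 of them with any 1 array left out, none rose, and the median was -1.01. Dnajc3, a co-chaperone, was at 12.82 and 12.45 in wild type and at 9.43, 9.64 and 9.63 in the tumours (-3.07 ± 0.22, adjusted p = 0.000117). The tumours lay within a narrow range well below both wild-type samples. Creld2 fell by 2.36 ± 0.31, the disulfide isomerase Pdia4 by 2.23 ± 0.19, Ssr4, a part of the translocon-associated complex, by 2.04 ± 0.20, and the chaperone Hspa5, known as BiP, by 1.31 ± 0.24. Xbp1, the transcription factor of secretory cells, was at 14.59 in cromolyn replicate 1 and overlapped wild type (-0.46 ± 0.34, adjusted p = 0.314). Among 8 tested genes of polyamine metabolism, a pathway very active in normal prostate, Arg2, Sat1 and Smox fell and Azin1 and Oaz1 rose, with a list median of 0.15. Arg2, which makes ornithine, fell by 4.29 ± 0.43, Sat1, which acetylates polyamines, by 1.94 ± 0.22, and Azin1 rose by 1.12 ± 0.19. The calls of Smox and Oaz1 were lost with single arrays left out (Smox without cromolyn replicate 2 or 3 or wild-type replicate 2, adjusted p = 0.0777 to 0.267, Oaz1 without any of the 5 arrays other than cromolyn replicate 2, 0.0829 to 0.154). Odc1, the first enzyme of the pathway, was not called (0.23 ± 0.25).

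Smooth muscle genes fell without exception: 18 of 18 tested, 15 of them with any 1 array left out, with a median of -3.43. Myh11, the smooth muscle myosin heavy chain, was at 14.83 and 15.06 in wild type and at 6.76, 7.24 and 6.91 in the tumours (-7.98 ± 0.23, adjusted p = 2.16e-05). Only replicate 2 was above background, and barely. The myosin light chain kinase Mylk (-6.69 ± 0.29), tropomyosin Tpm2 (-6.32 ± 0.31), the filament protein desmin, Des (-5.84 ± 0.39), transgelin, Tagln (-5.80 ± 0.26), and the enteric actin Actg2 (-5.64 ± 0.46) fell too. Acta2, smooth muscle actin, was at the top of the scale in wild type (16.05 and 16.07) and at 11.60, 12.48 and 13.01 in the tumours (-3.70 ± 0.38).

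Other tissues in the dissected wild-type samples moved with these lists, and their part in the falls was not tested. Of 20 tested skeletal muscle markers 19 fell and 1, Tnnc1, rose, and their summed intensity was 113896 to 159675 in wild type and 2674 to 9454 in the tumours, the highest in replicate 2. Tnnc1 lost its call without wild-type replicate 1 (adjusted p = 0.0644) or 2 (0.066). Of 8 urothelial markers 6 fell, from summed intensities of 21639 to 51802 to 893 to 1213, and the uroplakins Upk1a and Upk2 were below background in all tumours, at least 31.0-fold and 31.5-fold lower. Of 14 adipocyte markers 11 fell, from 31216 to 62292 to 4709 to 6707. Fibroblast and collagen markers fell in 5 of 18, or in 9 without wild-type replicate 1 and 2 without wild-type replicate 2, from 69085 to 133403 to 20457 to 53340. The proteoglycan Dcn led them (-3.50 ± 0.77, adjusted p = 0.0708 without wild-type replicate 2). With all arrays the share of fibroblast and collagen markers that fell (27.8%) lay near that of all features (22.8%). Of 7 mast cell markers 6 fell, and the summed intensity was 20590 to 20662 in wild type and 3288 to 9388 in the tumours, most of it from Gata2, which luminal cells also express. The mast cell carboxypeptidase Cpa3 was at 8.69 and 9.39 in wild type and at 6.47, 6.62 and 6.81 in the tumours, at least 4.10-fold lower (adjusted p = 0.001), and Mcpt4, Tpsb2 and Cma1 were below background in every tumour as well. Gata2 and Cma1 lost their calls without wild-type replicate 2 (adjusted p = 0.104 and 0.207), Gata2 also without wild-type replicate 1 (0.111), and Cma1 also without cromolyn replicate 1 (0.0867) or 2 (0.0598).

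Against these falls, regulators of neuroendocrine and neural cells rose from below background. Of 33 listed factors 30 had a probe, and 24 of these were tested, since the rest were above the limit on no array. Among the tested factors 13 rose (54.2%), 1 fell, and the median was 1.97 (1.68 with bounded members at their bound). Factors dim in wild type were tested only where a tumour array was above the limit, so share and median leave out silent factors. Insm1, a zinc finger factor of neuroendocrine differentiation, was at 6.51 and 6.38 in wild type and at 13.99, 12.72 and 14.07 in the tumours. By fitted difference (7.15 ± 0.41, adjusted p = 6.06e-05) it had the largest rise of all named genes tested whose groups did not overlap. With wild type set at the limit, the rise was at least 96.2-fold (6.59 on the log2 scale). That bound lies below the fitted rises of Ly6h (6.91) and Gprin1 (6.82). Myt1, a neural zinc finger factor, went from 6.54 and 5.95 to 11.73, 11.22 and 11.52 (at least 22.3-fold higher, adjusted p = 3.84e-05). Prox1, a homeobox factor of neural and endocrine progenitors, went from 6.91 and 6.94 to 11.13, 11.44 and 11.79 (at least 21.8-fold higher, adjusted p = 3.94e-05). All tumours carried these 3 factors and no wild-type sample was above background for any of them.

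Lower rises were seen for Myt1l (at least 5.75-fold), Onecut2 (4.73-fold), Lhx2 (4.53-fold), Nkx2-2 (3.45-fold) and St18 (3.40-fold), all from below background in wild type, and for Tcf4 (1.99 ± 0.19 on the log2 scale). Mycl, a Myc family gene, fell by 1.65 ± 0.20. Other factors were uneven among the tumours and not called. Foxa2, a pioneer factor of endocrine lineages, was at 10.78 in replicate 1 and at 7.37 and 7.04 in replicates 2 and 3 (adjusted p = 0.146). Sox2, a stem cell factor, was at 10.28, 7.65 and 8.36 (adjusted p = 0.107), and Isl1, a LIM homeobox factor, was at 6.87 in replicate 1, below the 11.44 and 11.59 of wild type, and at 11.64 and 10.15 in the others (adjusted p = 0.237). Neurod1 was near background (6.59, 7.75 and 6.42), and Mycn and Rest were above the limit on no array. Without cromolyn replicate 2, 15 factors rose and 3 fell, and the calls of Hes6, Sox1, Sox4 and Pou3f2 were lost without wild-type replicate 1 (adjusted p = 0.101, 0.0708, 0.0919 and 0.122) or 2 (0.133, 0.147, 0.13 and 0.18). Of 6 tested nerve and Schwann cell markers none rose and 1, Mal, fell (at least 21.4-fold), or 1 rose and 1 fell without cromolyn replicate 3 and 2 fell without cromolyn replicate 2. Their summed intensity was 9271 to 14313 in wild type and 6662 to 11560 in the tumours, and their part in the rises was not tested.

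The 3 promoter windows that RefSeq gives for Myt1, the second factor of the list by size of rise, are shown from 250 bases before to 50 bases after each start (GRCm38.p6, plus strand, 5′ to 3′). Capitals mark CCAAT boxes (CCAAT on either strand). From first to last they are chr2:181763082-181763381, chr2:181766779-181767078 and chr2:181796057-181796356.
Myt1 first start: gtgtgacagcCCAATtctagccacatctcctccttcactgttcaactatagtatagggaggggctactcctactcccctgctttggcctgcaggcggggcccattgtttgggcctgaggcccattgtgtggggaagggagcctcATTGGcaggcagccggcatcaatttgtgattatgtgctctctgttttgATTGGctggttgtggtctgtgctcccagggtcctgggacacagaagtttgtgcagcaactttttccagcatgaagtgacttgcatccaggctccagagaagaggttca
Myt1 middle start: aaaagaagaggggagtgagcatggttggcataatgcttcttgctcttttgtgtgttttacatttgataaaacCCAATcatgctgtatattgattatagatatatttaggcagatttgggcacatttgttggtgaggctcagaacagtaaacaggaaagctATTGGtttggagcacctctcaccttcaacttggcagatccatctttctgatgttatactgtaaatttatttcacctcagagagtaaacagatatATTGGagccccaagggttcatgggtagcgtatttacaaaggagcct
Myt1 last start: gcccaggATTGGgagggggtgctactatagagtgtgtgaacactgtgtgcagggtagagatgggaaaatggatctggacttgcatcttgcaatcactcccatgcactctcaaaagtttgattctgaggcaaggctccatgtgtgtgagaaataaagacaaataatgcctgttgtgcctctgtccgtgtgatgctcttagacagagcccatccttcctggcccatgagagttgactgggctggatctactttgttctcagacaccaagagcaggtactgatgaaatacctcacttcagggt
Of the 13 risen factors 9 had a promoter window, and 7 of these (77.8%) held a CCAAT box. Among all 9624 tested genes with a window the share was 43.0%. A gene was counted if any of its windows held the letters. A match to these letters is a description of the sequence and not a bound site.

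Granins and the proteins that process peptide hormones rose in the same tumours. Of 20 tested 11 rose (55%), 8 of them with any 1 array left out, 2 fell, and the median was 2.11. Chga, chromogranin A of dense-core granules, was at 6.69 and 6.95 in wild type and at 11.75, 10.15 and 11.25 in the tumours, at least 16.5-fold higher (adjusted p = 0.000497). Scg3, secretogranin III, was at 7.69 and 7.44 against 12.84, 12.29 and 13.17 (5.20 ± 0.27, adjusted p = 4.56e-05). Nnat, neuronatin, an imprinted gene of neuroendocrine cells, was at 7.86 and 7.10 against 15.49, 12.42 and 13.87 (6.44 ± 0.82, adjusted p = 0.00107). Every tumour was far above wild type for the 3 genes, with replicate 2 the lowest each time. Chgb, chromogranin B, rose by 3.78 ± 0.31, the granule chaperone Scg5 by 4.02 ± 0.31, Pcsk1n, an inhibitor of prohormone convertase, by 3.31 ± 0.25, and Cadps, which primes dense-core granules, by 3.41 ± 0.33. The neuropeptide gene Npy fell (-3.22 ± 0.96, call lost without cromolyn replicate 2 or 3 or either wild-type replicate, adjusted p = 0.0676 to 0.125), as did Cartpt (-1.62 ± 0.38, adjusted p = 0.0861 without wild-type replicate 2). Gal was at 14.18 in cromolyn replicate 2 and at 7.08 and 6.59 in the others (adjusted p = 0.415), and Tac1 was at 10.89 in replicate 1 and 7.57 and 8.17 in the others (adjusted p = 0.183). Without wild-type replicate 2 the counts were 8 higher and none lower.

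**Figure D3:**
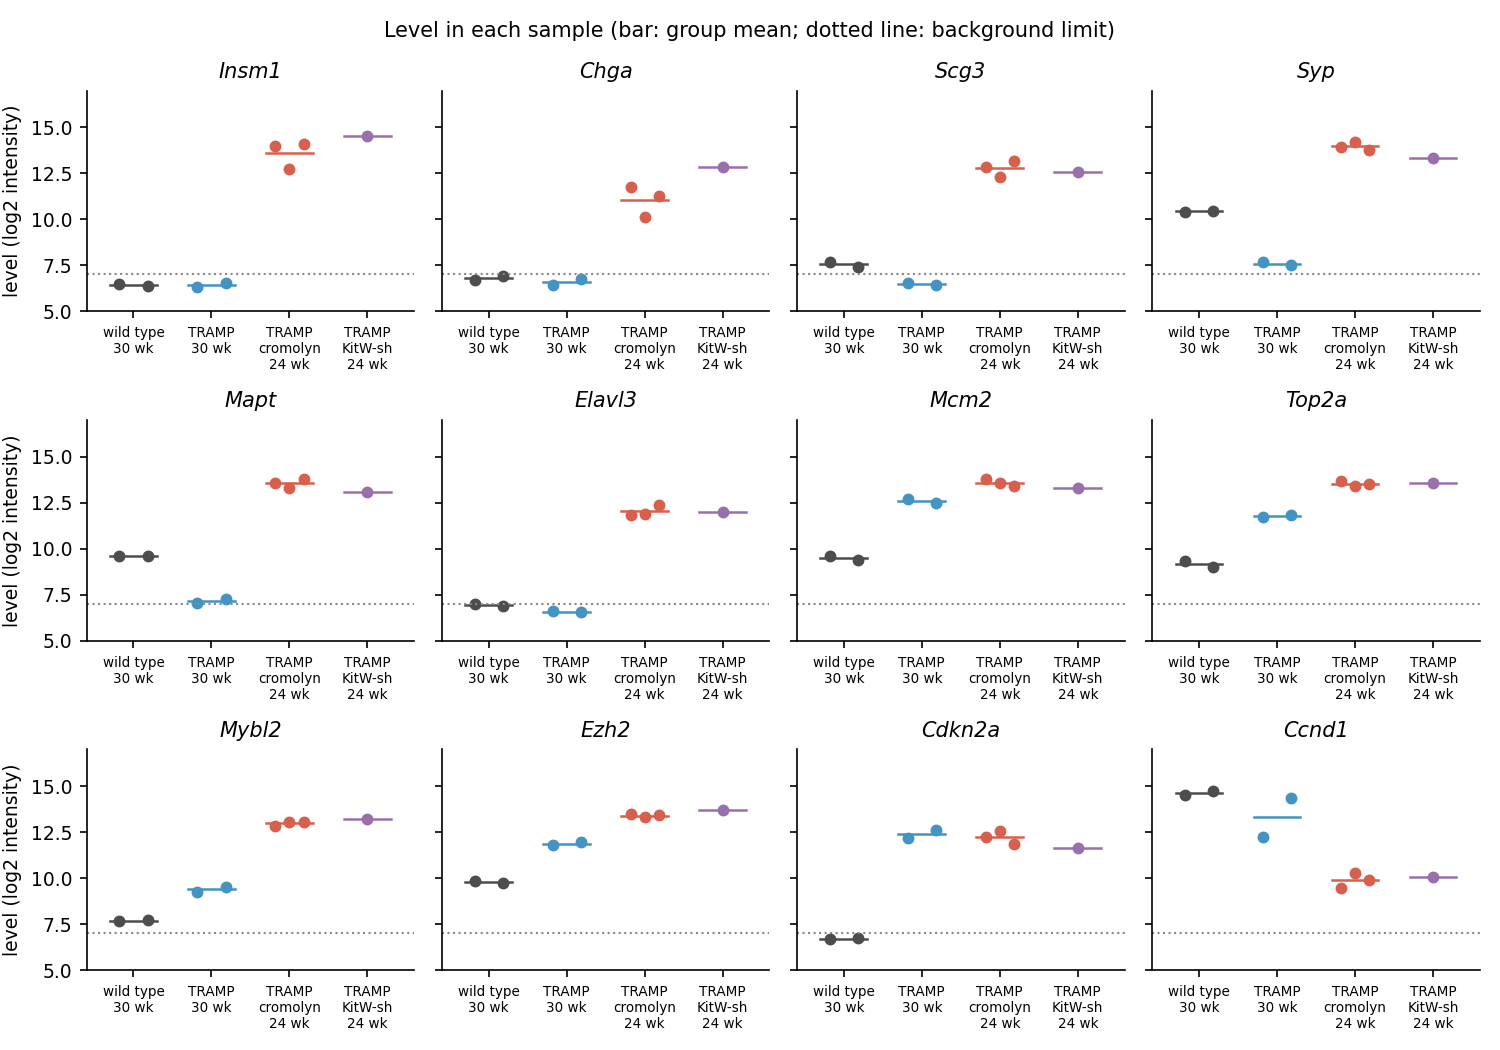
Level (log2 intensity) of 12 genes in each of the 8 samples, by group, with the group mean as a bar and the background limit (7.01) as a dotted line. Insm1 and Chga lie under the limit in wild type and between 10.15 and 14.07 in the cromolyn tumours, Mcm2 and Top2a of untreated tumours lie between wild type and cromolyn tumours, and Ccnd1 lies lowest in the 24-week tumours.

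Genes of synaptic vesicles and their fusion were split. Of 25 tested 14 rose (56%), 3 fell, and the median was 1.40. Syp, synaptophysin of the vesicle membrane, was at 10.41 and 10.46 in wild type and at 13.94, 14.23 and 13.79 in the tumours (3.55 ± 0.18, adjusted p = 4.55e-05). Its wild-type level was well above background, unlike those of Insm1 and Chga, and the groups were tight. The vesicle proteins Sv2a (3.93 ± 0.30) and Syt11 (3.67 ± 0.26), the calcium sensor Syt1 (3.42 ± 0.67), the complexin Cplx1 (3.07 ± 0.22) and the syntaxin Stx1a (2.94 ± 0.23) rose beside it. Unc13b, a priming factor, fell by 2.63 ± 0.68 and Sytl4, granuphilin, by 2.07 ± 0.46, and both lost their calls without wild-type replicate 1 (adjusted p = 0.112 and 0.0591) or 2 (0.0547 and 0.0503), Unc13b also without cromolyn replicate 3 (0.0592). Rims1 was at least 1.48-fold lower. Without cromolyn replicate 2 the counts were 18 higher and 5 lower, and without either wild-type replicate 12 and 1. Syt4 and Syn2 were not called and differed among tumours: Syt4 was at 13.85 in replicate 2 and at 7.27 and 7.54 in the others, where wild type was at 10.21 and 10.68.

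The neuronal cytoskeleton was the most even of the neural lists. Of 29 tested genes 24 rose (82.8%), 21 of them with any 1 array left out, none fell, and the median was 3.02. Crmp1, a collapsin response mediator of growth cones, was at 7.06 and 7.16 in wild type and at 12.88, 13.28 and 13.42 in the tumours (6.08 ± 0.20, adjusted p = 2.19e-05). Mapt, the microtubule protein tau, was at 9.60 and 9.62 against 13.58, 13.32 and 13.80 (3.95 ± 0.19, adjusted p = 3.94e-05). The spread within each group was small beside the gap for both genes. The neurofilament-related Ina was at least 31.0-fold and the stathmin Stmn4 at least 21.6-fold higher, and Dpysl5, a further collapsin response mediator, rose by 4.85 ± 0.30, Stmn1, a tubulin-binding protein also found in dividing cells, by 4.83 ± 0.28 and Stmn3 by 4.10 ± 0.28. The rises of Dclk1, Dpysl3 and Cntn1 lost their calls without either wild-type replicate (adjusted p = 0.0717 to 0.181). Map1b (-0.31 ± 0.33), Nefh (-1.08 ± 1.44), Stmn2 (0.73 ± 0.45), Ncam1 (0.67 ± 0.44) and Tubb3 (0.59 ± 0.21, adjusted p = 0.0573) were not called. Nefh was at 12.94 in cromolyn replicate 2 and at 7.86 and 8.55 in the others. Among the 10 largest rises of all named genes, 7 lay outside the gene lists, of which Pclaf is given with the mitotic genes. The other 6 were Ly6h (6.91 ± 0.21) and Gprin1 (6.82 ± 0.20), both known from neurons, the glycine receptor gene Glra2 (at least 51.4-fold), the glucuronyltransferase B3gat1, which makes a neural carbohydrate epitope (at least 42.8-fold), Shd (5.60 ± 0.43) and the Ras-like Diras1 (5.57 ± 0.17).

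RNA-binding regulators of neuronal splicing rose while their epithelial counterparts fell. Of 16 tested 9 rose (56.2%), 6 of them with any 1 array left out, 1 fell, and the median was 0.97. Elavl3, a neuronal RNA-binding protein of the Hu family, was at 7.0 and 6.88 in wild type and at 11.86, 11.90 and 12.39 in the tumours, at least 32.9-fold higher (adjusted p = 3.41e-05). Its relatives Elavl4 (4.96 ± 0.48) and Elavl2 (4.11 ± 0.32), the splicing factors Rbfox1 (4.23 ± 0.29) and Celf4 (3.52 ± 0.31), and Khdrbs2 (at least 17.2-fold) rose with it. Srrm4, which sets the neural splicing of microexons, was near background (7.14, 8.33 and 6.82 against 6.55 and 6.54, adjusted p = 0.139), and Ptbp1, a repressor of neuronal exons, was at 12.50, 12.96 and 11.86 against 12.47 and 12.61 (-0.10 ± 0.32). The fall of Mbnl2 (-1.05 ± 0.30) lost its call without any of the 5 arrays other than cromolyn replicate 1 (adjusted p = 0.0552 to 0.113). The epithelial splicing factors Esrp1 and Esrp2, listed with the junction genes, fell, Esrp2 at least 3.95-fold.

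Neurotransmitter genes of other kinds moved less. Of 12 tested monoamine genes 2 rose and 5 fell, with a median of -0.68. The noradrenaline transporter Slc6a2 was at least 26.3-fold lower and tyrosine hydroxylase Th fell by 1.29 ± 0.17, whereas Ddc, aromatic amino acid decarboxylase, was at 9.96 and 9.17 in wild type and 15.33, 12.20 and 13.66 in the tumours (4.17 ± 0.83, adjusted p = 0.0537 without wild-type replicate 2). Among 16 voltage-gated ion channel genes 2 rose and 2 fell (median 0.33), or 6 and 3 without cromolyn replicate 2 and 1 and 0 without wild-type replicate 1, and the sodium channel subunit Scn3b led (at least 8.00-fold). Among 13 neurotransmitter-gated receptor genes 8 rose (median 0.78), or 5 without cromolyn replicate 1 or 3 or wild-type replicate 1 and 3 without wild-type replicate 2. The glutamate receptor gene Gria2 (4.47 ± 0.40) and the nicotinic receptor genes Chrnb2 (3.52 ± 0.19) and Chrna5 (at least 2.93-fold) stayed called in each case. Of 20 Notch pathway genes 4 rose (Hey1, Mfng, Hes6 and Hes5) and 2 fell (Notch3 and Hes1), a share near the background, with a median of 0.12. Hey1, an effector, rose by 2.90 ± 0.38 and the receptor gene Notch3 fell by 1.63 ± 0.29, and without wild-type replicate 1 or 2 only 2 genes rose and 1 fell.

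Genes of DNA replication and nucleotide synthesis rose as a block. All 33 tested of 40 listed rose (100%, against 23% of all features), 31 of them with any 1 array left out, and the median was 3.23. Cdc45, a part of the replicative helicase, was at 7.44 and 7.52 in wild type and at 11.95, 11.67 and 12.26 in the tumours (4.48 ± 0.21, adjusted p = 3.94e-05). Rrm2, the regulated subunit of ribonucleotide reductase, was at 7.99 and 7.38 against 12.33, 11.96 and 12.15 (4.46 ± 0.23, adjusted p = 4.52e-05). Mcm2, of the ring helicase loaded at origins, was at 9.63 and 9.37 against 13.77, 13.58 and 13.44 (4.10 ± 0.18, adjusted p = 3.65e-05). The tumours lay within less than 1 unit of each other for these genes, and wild type was lower by more than 3 units. The licensing factor Cdt1 (4.29 ± 0.21) and the helicase subunits Mcm5 (4.29 ± 0.23) and Mcm7 (4.17 ± 0.25) rose by similar amounts. The smallest rise was that of Gmnn, the inhibitor of Cdt1 (0.57 ± 0.17), whose levels lay at the limit, and the calls of Gmnn and Gins4 were lost without cromolyn replicate 1 (adjusted p = 0.0565 and 0.0517) or either wild-type replicate (0.0831 to 0.11), and that of Gmnn without cromolyn replicate 3 (0.0774).

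Mitotic genes rose by as much. Of 46 tested 43 rose (93.5%), 41 of them with any 1 array left out, none fell, and the median was 3.75. Mybl2, the B-Myb factor that drives genes of late cell cycle stages, was at 7.68 and 7.72 in wild type and at 12.84, 13.07 and 13.08 in the tumours (5.30 ± 0.17, adjusted p = 2.16e-05). Kif11, the kinesin that separates spindle poles, was at 7.04 and 6.66 against 12.23, 11.36 and 11.60 (4.88 ± 0.29, adjusted p = 6.81e-05). Top2a, which untangles DNA before chromosomes part, was at 9.34 and 9.0 against 13.70, 13.40 and 13.50 (4.37 ± 0.18, adjusted p = 3.43e-05). No tumour came within 3 units of wild type for any of them. The kinesins Kif22 (4.70 ± 0.22) and Kif4 (4.64 ± 0.15), the kinase Plk1 (4.67 ± 0.19) and survivin, Birc5 (4.66 ± 0.31), followed, and Pclaf, a clamp-binding protein of replicating cells outside both lists, rose by 6.02 ± 0.34. Pttg1 (-0.38 ± 0.26), Cks2 (0.15 ± 0.20) and Cks1b (0.62 ± 0.24, adjusted p = 0.0794) were not called, all at or near the limit. The calls of Ect2 and Smc2 were lost without wild-type replicate 2 (adjusted p = 0.0932 and 0.196) or cromolyn replicate 3 (0.0505 and 0.0525), of Ect2 without wild-type replicate 1 (0.0777) and of Smc2 without cromolyn replicate 1 (0.0831). No probe used here measured Mki67.

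Promoters of the 2 members of each list with the largest rise are shown from RefSeq (GRCm38.p6, 250 bases before to 50 bases after the start, 5′ to 3′ on the strand of the gene), since letters found in such promoters differed between the lists. Capitals mark, on either strand, E2F letters (TTTGGCGC or TTTCCCGC), CCAAT boxes (CCAAT) and the cell cycle homology region called CHR (TTTGAA). Cdc45 is chr16:18811923-18812222 on the minus strand, and the others lie on the plus strand, Rrm2 at chr12:24708004-24708303, Mybl2 at chr2:163054385-163054684 and Kif11 at chr19:37376132-37376431.
Cdc45: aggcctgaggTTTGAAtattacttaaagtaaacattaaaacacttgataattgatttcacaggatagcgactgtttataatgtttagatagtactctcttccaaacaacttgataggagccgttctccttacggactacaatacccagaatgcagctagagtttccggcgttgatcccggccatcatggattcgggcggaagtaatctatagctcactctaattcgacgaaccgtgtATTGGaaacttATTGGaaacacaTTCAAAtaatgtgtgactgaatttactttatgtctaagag
Rrm2: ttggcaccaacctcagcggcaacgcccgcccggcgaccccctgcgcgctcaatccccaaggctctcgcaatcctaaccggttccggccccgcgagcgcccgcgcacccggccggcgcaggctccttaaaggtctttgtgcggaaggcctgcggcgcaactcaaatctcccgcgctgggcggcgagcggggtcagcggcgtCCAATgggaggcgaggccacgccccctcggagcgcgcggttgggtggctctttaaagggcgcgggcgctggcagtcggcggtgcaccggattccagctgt
Mybl2: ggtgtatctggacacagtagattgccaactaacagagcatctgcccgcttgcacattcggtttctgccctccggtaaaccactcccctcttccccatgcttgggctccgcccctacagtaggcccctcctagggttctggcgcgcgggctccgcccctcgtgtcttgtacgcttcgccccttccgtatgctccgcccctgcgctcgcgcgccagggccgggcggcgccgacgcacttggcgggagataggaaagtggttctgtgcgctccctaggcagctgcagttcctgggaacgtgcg
Kif11: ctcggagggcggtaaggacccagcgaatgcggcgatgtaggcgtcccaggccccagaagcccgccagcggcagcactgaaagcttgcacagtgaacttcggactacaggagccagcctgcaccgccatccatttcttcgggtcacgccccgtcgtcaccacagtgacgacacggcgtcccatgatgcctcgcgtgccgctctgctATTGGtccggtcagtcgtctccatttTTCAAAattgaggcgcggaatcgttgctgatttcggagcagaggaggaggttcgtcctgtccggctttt
Cdc45 held 2 CCAAT boxes and 2 CHR matches, Rrm2 held 1 CCAAT box, Kif11 held 1 of each, and Mybl2 held none of these letters in this window. Among 37 risen mitotic genes with a window, 26 (70.3%) held a CHR and 25 (67.6%) a CCAAT box. Among all 9624 tested genes with a window the shares were 14.8% and 43.0%. Among 27 risen replication genes with a window, 8 (29.6%) held E2F letters, against 2.89% of all, while 6 (22.2%) held a CHR. Among the mitotic genes 3 (8.11%) held E2F letters. None of 13 fallen junction genes with a window and none of 15 smooth muscle genes held E2F letters. At a share of 2.89% over all genes, none is the likely count in sets this small, so no contrast is drawn from it.

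Within the Rb and E2F checkpoint, E2f1, E2f2 and several inhibitors of cyclin-dependent kinases rose and the D-type cyclins fell. Of 25 tested 14 rose (56%) and 4 fell, and the median was 1.78. Cdkn2a, which encodes the inhibitors p16 and Arf, was at 6.70 and 6.74 in wild type and at 12.24, 12.56 and 11.87 in the tumours, at least 37.1-fold higher (adjusted p = 3.65e-05). It was also high in the untreated tumours (12.21 and 12.63). E2f1 rose by 4.16 ± 0.17, E2f2 by 3.54 ± 0.45, the cyclin gene Ccne2 at least 16.1-fold, and the inhibitors Cdkn2d, Cdkn1c, Cdkn1b and Cdkn2c by 3.28 ± 0.25, 3.27 ± 0.34, 2.95 ± 0.26 and 2.95 ± 0.21. Ccnd1, cyclin D1, was at 14.54 and 14.74 in wild type and at 9.48, 10.32 and 9.94 in the tumours (-4.73 ± 0.59, adjusted p = 0.00102). Ccnd2 fell by 3.68 ± 0.34 and Ccnd3 by 1.50 ± 0.25. Rb1 itself was at 10.74 and 10.52 against 12.12, 11.56 and 12.01 (1.27 ± 0.21, adjusted p = 0.00349), higher in every tumour. E2f4 fell by 0.75 ± 0.20, a call lost without wild-type replicate 1 (adjusted p = 0.0594) or 2 (0.102), and E2f3 and E2f5 were not called.

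Among 15 tested genes of DNA methylation and Polycomb, 9 rose (60%) and 2 fell, with a median of 0.69. Ezh2, the histone methyltransferase of Polycomb repression, was at 9.86 and 9.76 in wild type and at 13.48, 13.34 and 13.42 in the tumours (3.60 ± 0.15, adjusted p = 3.43e-05). Uhrf1, which guides maintenance methylation, rose by 3.70 ± 0.15, Dnmt1 by 2.51 ± 0.18 and the Polycomb ring protein gene Bmi1 by 2.42 ± 0.25. Cbx7 (-1.82 ± 0.52) and Ring1 (-0.84 ± 0.21) fell, but both lost their calls without wild-type replicate 1 (adjusted p = 0.143 and 0.0957), and Cbx7 also without wild-type replicate 2 (0.0686) or cromolyn replicate 3 (0.066). Of 17 genes of homologous recombination 13 rose (76.5%), 12 of them with any 1 array left out, none fell, and the median was 1.60. The motor proteins Rad54b (4.24 ± 0.17) and Rad54l (3.82 ± 0.16), Rad51ap1 (at least 9.81-fold) and the helicase Blm (3.17 ± 0.16) led, and the kinase gene Atm was not called (-0.35 ± 0.22).

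The 3 cromolyn tumours were not alike outside these shared changes. Of 11735 features above background on a cromolyn array, replicate 2 lay at least 4-fold above both other tumours in 218 (1.86%) and below both in 43. Replicate 1 did so in 46 and 23 features and replicate 3 in 36 and 16. The genes named in this paragraph were chosen after their values were seen and got no test. In replicate 3, among 9 secretory genes above background on a cromolyn array, 5 were at least 4-fold higher than in both others (Azgp1, Defb50, Msmb, Spink1 and Wfdc3), as were Krt8, Krt19, Krt17, Tmprss2, Cldn4 and Upk1b. Replicate 2 held peptide and synaptic genes (Gal, Nts, Scg2, Syt4, Syn2 and Sv2b), the sensory neuron factor Pou4f1, the neurofilament gene Nefh, and of the epithelial genes Krt14, Dsg2, Svs4 and Svs5, together with 6 skeletal muscle genes, 2 adipocyte genes and the endothelial Cdh5, Sox17 and Sox18. Gal was at 14.18 there against 7.08 and 6.59. Other genes of the neural lists went the other way in replicate 2, where Resp18, Syt1, Cntn1 and Cacna2d1 were at least 4-fold below both other tumours, as was Cldn10. Replicate 1 held Foxa2, Gata3, Tac1 and Npy, and was lowest in the class II antigen genes H2-Aa, H2-Ab1, H2-Eb1 and Cd74. Isl1 and Scg2 were at least 4-fold below both other tumours in replicate 1, and Neurod4 and Doc2b in replicate 3.

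**Figure D4:**
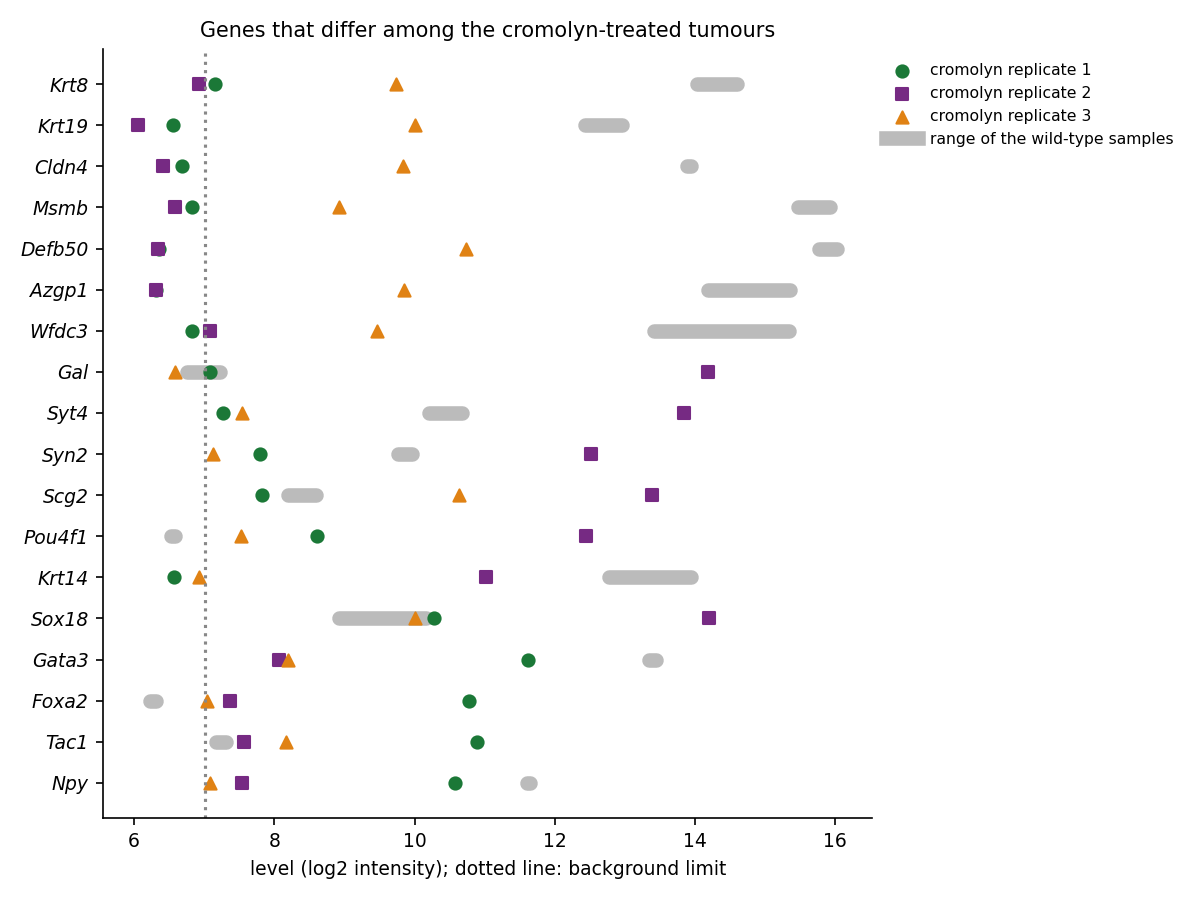
Level (log2 intensity) of 18 genes in cromolyn replicates 1 (circles), 2 (squares) and 3 (triangles), with the range of the wild-type samples in grey and the background limit (7.01) dotted. Replicate 3 alone is above the others for Krt8, Krt19, Cldn4 and the secretory genes, replicate 2 for Gal, Syt4 and Syn2, and replicate 1 for Foxa2 and Tac1.

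The untreated TRAMP tumours of 30 weeks were then set beside the cromolyn tumours. Both differences from wild type use the same wild-type arrays, so each is given on its own, with the direct contrast between the tumour groups as the test. Untreated tumours differed from wild type in 864 features (6.61%), 487 higher (3.73%) and 377 lower (2.89%), and cromolyn tumours differed from untreated ones in 4822 (36.9%), 2464 higher (18.9%) and 2358 lower (18%). Treatment and age cannot be told apart in that contrast. The single KitW-sh tumour, of 24 weeks and with no cromolyn named, stood with the cromolyn tumours: it correlated with them at 0.939 to 0.975 across features and with the untreated tumours at 0.823 and 0.825. On the first principal component it lay at 67.5, the cromolyn tumours at 72.7 to 89 and the untreated tumours at -67.7 and -67.9. Its levels were 14.51 for Insm1, 12.84 for Chga, 13.56 for Top2a and 10.49 for Krt8, and Trp63 was below background (6.70). No pattern was tested as particular to cromolyn treatment. Of 15 secretory genes, 3 fell and 1 rose in untreated tumours against wild type (median -0.96). In the direct contrast 6 fell (median -2.85), Tgm4 and Msmb among them. Defb42 and Acpp had already fallen in untreated tumours (-7.66 and -2.27). They were not called in the direct contrast (adjusted p = 0.14 and 0.21), nor was Pbsn (0.124). None of 8 seminal vesicle genes was called in either (medians -2.66 and -3.77). In the luminal list, 1 of 20 genes fell in untreated tumours against wild type (median 0.23), and 12 fell and 1 rose in cromolyn against untreated tumours (median -2.34). In the junction list the counts were 1 higher against wild type (median 0.24) and 24 lower in the direct contrast (median -3.43). Krt8 was at 14.79 and 15.00 and Cdh1 at 12.24 and 12.33 in the untreated tumours, close to wild type. Smooth muscle fell in 3 of 18 (median -0.75) and in 16 by the direct contrast (median -3.16). Skeletal muscle differed: 14 of 20 genes fell already in untreated tumours (median -4.27), and 2 fell and 1 rose in the direct contrast (median 0.04). Basal genes fell in 4 of 16 (median -1.14) and in 8 by the direct contrast, where 1 rose (median -1.86), with Trp63 at 9.60 and 10.03 between both groups.

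Proliferation genes rose in both tumour groups and further in the cromolyn one. Replication genes rose in 28 of 33 in untreated tumours (median 1.88) and in 25 of 33 by the direct contrast (median 0.98), and mitotic genes in 33 of 46 (median 2.01) and 40 of 46, with 1 lower (median 1.64). Mcm2 was at 12.71 and 12.49 and Top2a at 11.71 and 11.85 in the untreated tumours, between wild type and the cromolyn tumours. Neuroendocrine factors rose in 1 of 24 in untreated tumours (median 0.11) and in 10 by the direct contrast, where 2 fell (median 1.83), granins in none of 20, with 3 lower (median -0.65), and in 11 (median 2.49), and cytoskeleton genes in 1 of 29, with 7 lower (median -0.46), and in 26 (median 3.49). Synaptic genes fell in 5 of 25 in untreated tumours (median -0.74), and 15 rose and 2 fell in the direct contrast (median 2.29). Insm1 and Chga were below background in both untreated tumours. Of all list members, 21 were called in opposite directions against wild type in the untreated and the cromolyn tumours.

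**Figure D5:**
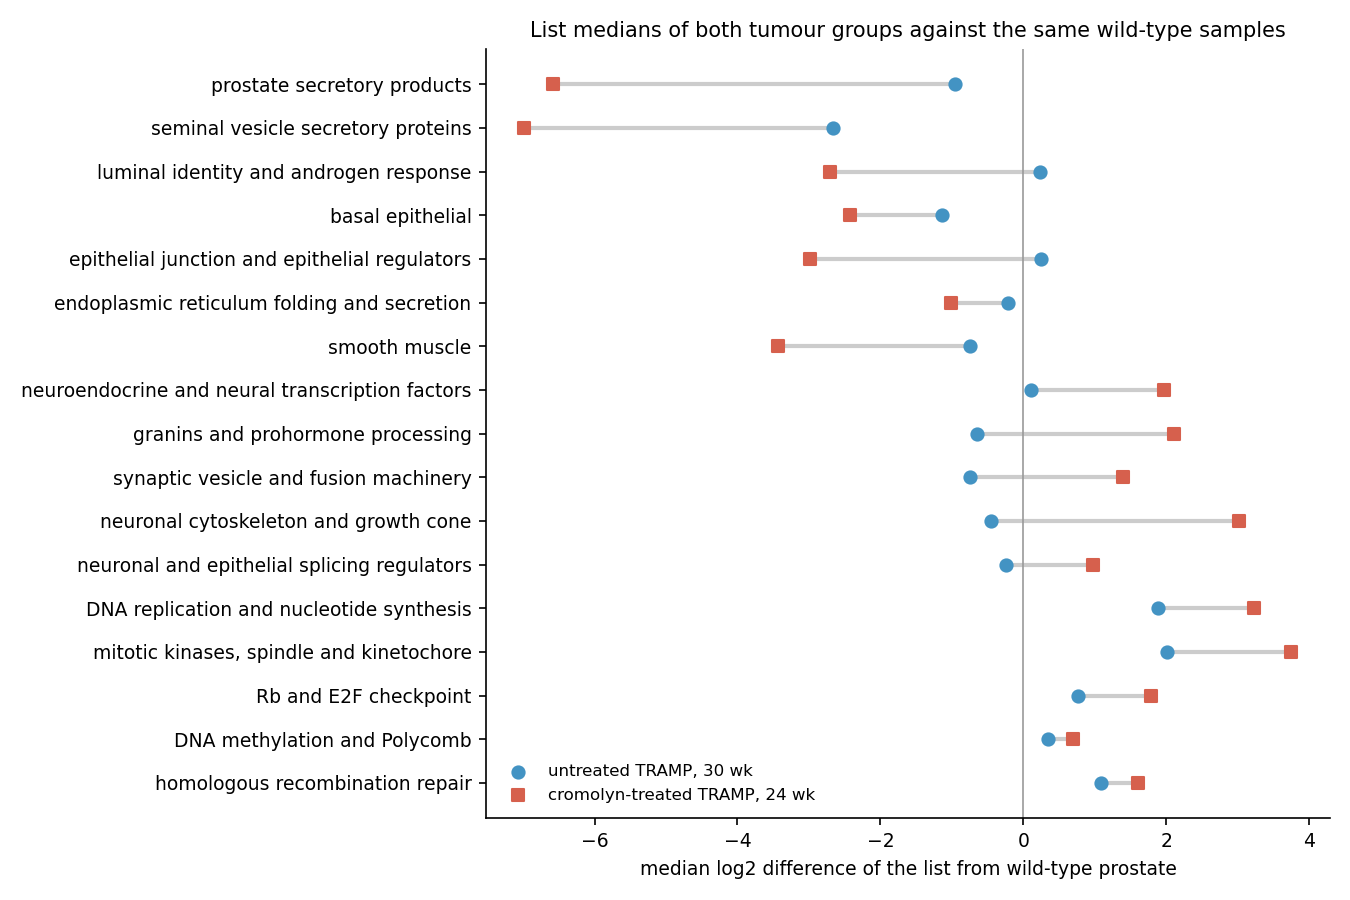
Median log2 difference from wild-type prostate (horizontal axis) of 17 gene lists in untreated TRAMP tumours (circles) and cromolyn-treated TRAMP tumours (squares), which share the wild-type samples. The luminal and junction medians are 0.23 and 0.24 in untreated tumours and -2.70 and -2.99 in cromolyn tumours, and the replication and mitotic medians are 1.88 and 2.01 against 3.23 and 3.75.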

How the data were processed

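The authors deposited linear intensities of 8 Illumina mouse beadchip arrays, already quantile normalized (largest log2 gap between sorted arrays 0.0489) and not background subtracted (lowest value 123.8), per the values. BeadStudio is named in the submitters' processing notes, and further steps are not given in the sources used here. Depth does not apply to arrays: their number limits the precision. Intensities were corrected with normexp (offset 50), quantile normalized and put on a log2 scale, which gives the log2 levels printed here, computed from the deposited intensities. A probe was above background past an intensity of 216.4 (7.01 on the log2 scale), set from the dim side of all values (mode 181, SD 15.2, tail 0.01). A filter on detection p-values had been planned but could not be used, since the 8 columns of the non-normalized table are not tied to samples, and they were not used. The brightest probe stood for a gene. Symbols were updated through a RefSeq gene table (GRCm38.p6), which matched 23962 of 25697 probes, and 1719 probes had no name. Differences were fitted with limma 3.58.1 (R 4.3.3) on group means over all 8 arrays, with 4 residual and 2.62 prior degrees of freedom and Benjamini-Hochberg adjustment over 13067 features at 0.05. An "at least" fold compares the bright group's mean with the dim group's mean of, per array, the higher of the limit and its own level. Figures and promoter letters used Python 3.11.15, pandas 2.3.3 and matplotlib 3.10.9.

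The members and lists were chosen with earlier results of these data known. Genes are named by rule: the 10 largest rises and falls with groups apart, up to 6 called members of each list by size, up to 3 called the other way and up to 3 uncalled ones by level, a fixed panel (among it Kit, for which no probe was used here), up to 10 genes called in opposite directions in the tumour groups, and the leading promoters; others named are said to be chosen after their values were seen, or were named for a call lost with 1 array left out or a marked spread among tumours. Replicate numbers did not pair samples: correlations of same-numbered deviations were 0 to 0.07. Alternatives were other background and scaling settings, filters, probe rules, arrays left out and a replicate block. The scripts were tested on simulated data.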

Additional observations from a re-analysis of the deposited data

Results flagged for a closer look

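For 10 genes of the neural lists the cromolyn and the untreated tumours were called in opposite directions against the same wild-type arrays. Since they were chosen for that, the difference between the tumour groups, taken from their direct contrast in the same limma fit, is given as a description with no p. Rbfox1, a neuronal splicing factor, was 6.68 higher on the log2 scale in cromolyn than in untreated tumours. It was 4.23 above wild type in the former and -2.45 from it in the latter, where it lay under the background limit (6.65 and 6.80). Gap43, a growth cone protein, differed by 6.48, with 3.84 and -2.64 against wild type. The complexin Cplx1 differed by 6.47, with 3.07 and -3.40. Syp, synaptophysin, differed by 6.40, with 3.55 and -2.85, and Mapt, tau, by 6.39, with 3.95 and -2.44. The granule chaperone Scg5 differed by 5.98 and the stathmin Stmn3 by 5.60. The synapsin Syn1 differed by 5.49, with 2.83 and -2.66, and the vesicle protein Sv2a by 5.45. Uchl1, a ubiquitin hydrolase abundant in neurons, differed by 5.16, with 3.09 and -2.07. For each gene all 3 cromolyn tumours were above, and both untreated tumours below, both wild-type samples. Drug and age cannot be told apart in this contrast, and the single 24-week KitW-sh tumour, with no cromolyn named, was above wild type for all 10 genes too, by 2.10 (Uchl1) to 3.86 (Scg5), with Rbfox1 at 12.74, Gap43 at 12.56, Cplx1 at 13.19, Syp at 13.34 and Mapt at 13.10. Of the other 11 genes called in opposite directions, Pcsk1n, Kif5c and Napb were higher in cromolyn tumours, and H2-T23, Ifit3, Ocln, Tapbp, H2-D1, H2-K1, Ddx58 and Irf9 were lower.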

How the results depend on the processing

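Leaving out each array in turn gave 1975 to 3286 genes higher and 2257 to 3145 lower than wild type, against 2999 and 2980. Genes different, cromolyn against untreated TRAMP, numbered 2429 to 5357, against 4822. The 1975 came without wild-type replicate 2, and without untreated replicate 1 or 2 the genes different from untreated tumours numbered 2429 or 2485. Replicate numbers did not pair the samples, and with replicate as a block 2336 genes were higher, 2410 lower and 3580 different from untreated tumours. Other settings gave 2472 to 3106 higher and 2529 to 3325 lower, the latter with cyclic loess. Of 418 called list members and named genes 311 stayed called without each of the 5 arrays, 91 were lost without wild-type replicate 2 and none reversed. In 4 uncalled genes the sign turned with a call, and the cause was not tested: Ebf1 (-1.08) and Sox17 (-1.23, or up to 0.67 without another array) without cromolyn replicate 2, Doc2b with the block (0.73) and Map1b with the mean over probes (0.57). With 2 wild-type samples, each carries much of every value, and levels near 7.01 or 16.07 understate differences.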

Other observations

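Antigen presentation genes were lower in the cromolyn tumours than in wild-type prostate. Of 20 tested 9 fell (45%) and none rose, with a median of -1.29, and without wild-type replicate 2 the number was 3. B2m, the shared light chain of class I molecules, was at 15.74 and 15.80 in wild type and at 14.13, 14.32 and 14.28 in the tumours (-1.53 ± 0.15, adjusted p = 0.000374). H2-T23, a nonclassical class I gene, fell by 2.52 ± 0.27 and Tapbp, which loads peptides, by 1.29 ± 0.22. Class II genes were wide within groups, with H2-Ab1 at 12.08 and 14.42 in wild type and at 7.79, 10.55 and 11.68 in the tumours (adjusted p = 0.0619). Of 23 interferon response genes 4 fell (Gbp2, Ifit3, Ddx58 and Irf9) and none rose, a share below the background of 22.8%, with a median of -0.24. Only Ddx58, a sensor of viral RNA, stayed called with any 1 of the 5 arrays left out (-1.16 ± 0.17). The untreated tumours stood higher: 14 of 23 interferon genes rose there against wild type (median 1.46), and 18 were lower in cromolyn than in untreated tumours (median -2.19).

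Glycolysis and hypoxia genes went both ways, with 7 of 21 higher, 5 lower and a median of 0.05, or 6 and 2 without wild-type replicate 2. The hexokinase Hk2 (-2.92 ± 0.24) and the glucose transporter Slc2a1 (-2.05 ± 0.23) fell, and the phosphofructokinase Pfkp (2.50 ± 0.30), the neuronal enolase Eno2 (2.17 ± 0.41) and the pyruvate kinase Pkm (1.65 ± 0.31) rose. Of 18 cytosolic ribosomal protein genes 2, Rpl12 (-0.64 ± 0.17) and Rps14 (-0.46 ± 0.15), fell, and both calls were lost without wild-type replicate 2 (adjusted p = 0.117 and 0.143). The median was -0.23.

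Among other cells, 6 of 17 endothelial markers fell (11 without wild-type replicate 1, 3 without wild-type replicate 2), as did 3 of 15 macrophage markers (9 and 2), 1 of 10 T and NK cell markers (6 without wild-type replicate 1), 2 of 7 B cell markers (5 and 1, and none without any 1 cromolyn replicate) and 2 of 8 neutrophil markers (6 without wild-type replicate 1). None of these markers rose. With all arrays the shares that fell were 35.3% (endothelial), 20% (macrophage), 10% (T and NK cell), 28.6% (B cell) and 25% (neutrophil). Over all features the share was 22.8%, so the immune cell shares lay near or below it. None of 3 erythrocyte markers was called by limma (0 at an unadjusted p under 0.05, median -0.13), and 1 fell without cromolyn replicate 1. The wild-type samples themselves differed in immune genes: the summed intensity of neutrophil markers was 12293 and 119958, and the lactoferrin gene Ltf was at 9.79 in replicate 1 and 15.70 in replicate 2.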
